A study of Mus musculus with 8 samples.

Results

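The densest groups of NFATc2 binding sites along the genome of a dendritic cell line are described here. A site of the NFATc2 peak list was taken as a member when at least 3 other summits lay within 20 kb of its own summit, and members within 20 kb of each other were joined into clusters. Of the 9438 sites, 717 met the rule (7.60%), and they formed 229 clusters that together spanned 3281.59 kb. The members were chosen by the positions of the summits, so their density is a description and was not tested. The sites came from D1 cells, a long-term line of splenic dendritic cells (DCs) of the C57BL/6 strain. For NFATc2 the cells stably expressed, after lentiviral transfer and sorting for low marker expression, NFATc2 with a V5 tag at its C-terminus. Curdlan was given at 10 μg/ml for 30 min before the ChIP, which used an antibody to V5, so an added copy of the factor was mapped and not the endogenous one. The histone mark H3K4me3 was mapped in D1 cells in 3 conditions, which were non-treated (NT), 2 h of 10 μg/ml curdlan, and 2 h of curdlan with FK506. Each of the 4 ChIP libraries had its own input library, and no condition had a replicate, so every comparison between conditions below is a comparison of 2 libraries with no p-value.

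Curdlan is a β-glucan that binds dectin-1, a receptor of DCs for the fungal cell wall. Dectin-1 signaling raises intracellular calcium, the phosphatase calcineurin removes phosphates from NFAT proteins, and the dephosphorylated NFAT enters the nucleus, where it binds DNA around the core GGAAAA, often next to a site of AP-1 (Fos and Jun dimers). FK506 blocks calcineurin. H3K4me3 marks the starts of genes that are active or ready to be transcribed. Several NFAT sites over a stretch of DNA are known from cytokine loci of T cells, where they act together in promoters and enhancers.

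The sequences below lie at summits of clusters named in the results, except that the cluster at Cltc is not described further. Each is at the strongest member of its cluster that held the core outside UTRs. They show the GGAAAA core in the setting in which NFATc2 was recovered. Each is read from the forward strand of mm9, 5′ to 3′, with 25 bp on each side of the core. GGAAAA, or TTTTCC where the core lies on the reverse strand, and the AP-1 words TGACTCA and TGAGTCA are in capitals.
Gene-free cluster of 17 sites, chr8:129357380-129357435, 307 tags: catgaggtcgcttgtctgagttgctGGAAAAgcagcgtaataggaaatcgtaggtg
Cluster nearest to Edn1, chr13:42349641-42349696, 381 tags: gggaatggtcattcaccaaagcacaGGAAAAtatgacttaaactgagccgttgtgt
Ubash3b intron, chr9:40938853-40938908, 198 tags: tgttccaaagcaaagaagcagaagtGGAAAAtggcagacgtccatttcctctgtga
Cass4 intron, chr2:172243885-172243940, 235 tags: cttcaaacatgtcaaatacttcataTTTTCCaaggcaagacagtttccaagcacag
Rhof intron, chr5:123579472-123579527, 529 tags: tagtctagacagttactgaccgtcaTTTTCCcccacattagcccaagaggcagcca
Rcan1 intron, chr16:92416145-92416200, 193 tags: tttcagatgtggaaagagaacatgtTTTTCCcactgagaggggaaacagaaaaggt
Nr4a1 promoter, chr15:101096981-101097036, 45 tags: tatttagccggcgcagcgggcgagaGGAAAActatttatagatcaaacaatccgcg
Tnf promoter, chr17:35339000-35339055, 489 tags: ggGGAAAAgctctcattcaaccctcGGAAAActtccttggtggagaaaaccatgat
Ccl3 promoter, chr11:83462910-83462965, 400 tags: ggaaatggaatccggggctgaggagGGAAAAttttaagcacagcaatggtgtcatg
Cltc intron, chr11:86566103-86566158, 108 tags: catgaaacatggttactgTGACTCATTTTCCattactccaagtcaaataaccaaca
Cluster nearest to Tmco5, chr2:116815995-116816050, 249 tags: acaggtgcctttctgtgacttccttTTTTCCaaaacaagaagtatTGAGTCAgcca
The Cltc and Tmco5 sequences hold a core and an AP-1 word in the same window, in the Cltc sequence without a base between them, and the Tnf window holds 2 cores. Both motifs together are less frequent among all members than here, at 6.83% of member summits within 100 bp.

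The headers of the peak lists gave 14377535 ChIP tags for NFATc2 and between 16662316 and 21289349 for H3K4me3, with duplicates at the same position already removed. The H3K4me3 totals were 16662316 in NT, 21289349 with curdlan and 19468498 with FK506 added. Tags given below are counts that were not scaled to these totals. All 14 DC marker genes carried H3K4me3 within 1 kb of a transcription start site (TSS) in all 3 lists. Of 5 T cell markers only Lck did, and none of 4 B cell, 4 fibroblast, 2 liver and 3 stem cell markers did. In this the mark matched the labelled cell type.

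The sizes and spans of the clusters were shaped by the rule and are a description. A total of 109 clusters held 4 or more member sites, and these held 506 of the 717 members. The other 120 clusters held 1 to 3 members, whose neighbours within 20 kb included sites that did not themselves reach the rule. Among these, 56 held a single member. The most frequent size was 4 sites (72 clusters), 37 clusters held 5 or more, 12 held 6 or more, and the largest held 17. The clusters of at least 4 sites had a median span of 19958 bp (from 6966 to 112331 bp), and their peaks covered a median of 30.6% of it. Neighbouring summits in a cluster lay a median of 4676.5 bp apart (from 677 to 19859 bp, 488 gaps). Only 5 of these gaps were under 1 kb. Clusters were found on all 20 chromosomes of the list, with 21 on chromosome 2, 18 on chromosome 3 and 1 on chromosome X.

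**Figure D1:**
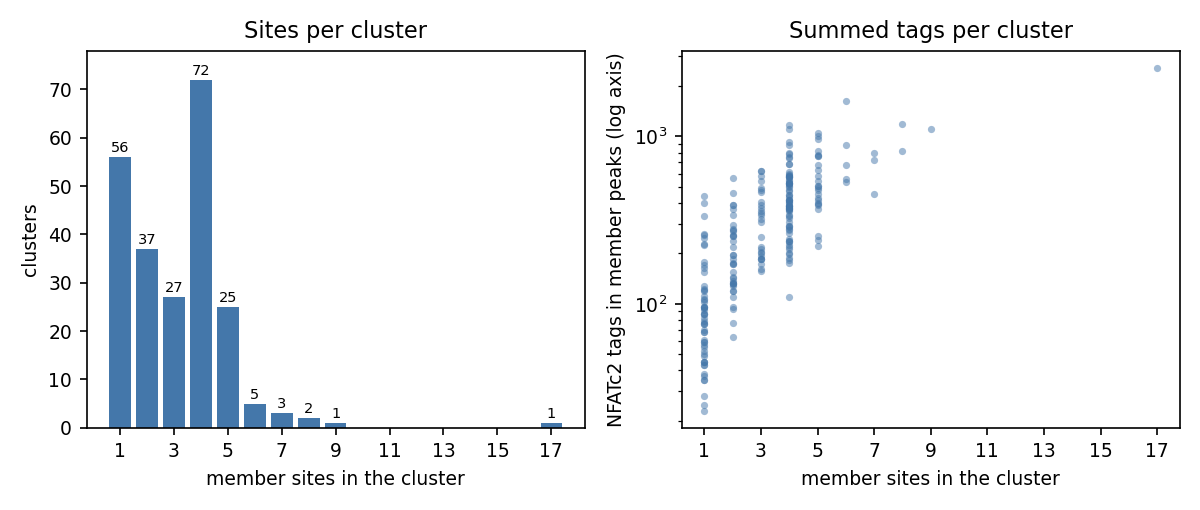
The left panel counts the 229 clusters by their number of member sites, and the right panel gives the summed NFATc2 tags of the member peaks of each cluster on a log axis. The most frequent size is 4 sites with 72 clusters, and the cluster of 17 sites has the most tags, 2564.

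The members held 81472 of the 801795 tags in NFATc2 peaks (10.2%). Their median was 84 tags per peak (95% order-statistic interval from 80 to 91), against 62 (61 to 63) in the 8721 other sites, and the member peaks were longer, with medians of 1258 and 1054 bp. The fold enrichment over the local background of the input was not higher, with medians of 13.0 and 13.4. These intervals cover the spread over sites of 1 library, and sites of a cluster share their surroundings. At the threshold of the rule the values were close. The 525 sites with exactly 3 other summits nearby had a median of 83 tags and the 1283 sites with 2 had a median of 78, while the 4806 sites with none had a median of 55.5 tags. Within a cluster the sites were unequal. In clusters of 4 or more sites the strongest site held a median of 39.9% of the tags (15.2 to 71.9%), and it had a median of 3.91 times the tags of the weakest one.

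The cluster with the most sites lay in a gene-free stretch at chr8:129281675-129394005. Its 17 sites ranged from 50 to 390 tags around a median of 115, and they summed to 2564 tags, the most of any cluster. GGAAAA stood within 100 bp of 8 of the 17 summits, and the 17 peaks together held 36 copies. The nearest TSS of a protein-coding gene was that of Tomm20, a subunit of the import complex of the outer mitochondrial membrane, 75718 bp away. The span carried H3K4me3 peaks in every list, which held 846 tags in NT, 975 after curdlan and 1129 with FK506 added. Scaled to 1000000 ChIP tags of the header (RPM), these were 50.8, 45.8 and 58.0.

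A second strong cluster without a gene lay at chr13:42333652-42370666, 25973 bp from the nearest TSS, that of Edn1, which encodes the peptide endothelin-1. Its 6 sites had 99, 383, 188, 381, 365 and 207 tags in order along the chromosome, 1623 in all, and its median fold enrichment was 29.6. The H3K4me3 peaks that overlapped this span had 490 tags in NT, 920 with curdlan and 540 with FK506 added (29.4, 43.2 and 27.7 RPM). The tags at the Edn1 TSS itself were 1618, 2777 and 1572. At chr19:53522480-53554798 a cluster of 6 sites with 894 tags lay over the non-coding genes 5830416P10Rik and 4833407H14Rik. Its nearest coding gene, at 48801 bp, was Dusp5, a nuclear phosphatase of the MAP kinase ERK. The 6 sites of the cluster at chr13:37633394-37661590 had 673 tags, of which 360 were at the strongest one. They lay 196180 bp from Ly86, which encodes a partner of the receptor RP105, and no list held H3K4me3 in this span.

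Several other leading clusters covered protein-coding genes. The 9 sites at chr16:44964534-45021819 reached from the start of Cd200r3, a member of the family of CD200 receptors on myeloid cells, to 55824 bp beyond it, with 42 to 279 tags per site. The 8 sites at chr7:148152799-148200359 surrounded Ifitm1 and Ifitm3, membrane proteins induced by interferon that limit virus entry, and the strongest of them had 412 tags. At chr1:40101813-40144201, 7 sites with 796 tags led up to Il1r2, the decoy receptor of IL-1, and the strongest one (285 tags) stood at -184 bp from the nearest TSS (negative distances are upstream). Both Cd200r3 and the Ifitm genes belong to families of similar neighbours. The study describes its NFATc2 reads as uniquely mapped but names bowtie at default settings. Whether reads that match several neighbours were counted here could not be checked from the peak lists.

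The 8 sites at chr9:40906450-40952639 all lay in introns of Ubash3b, a phosphatase that counteracts tyrosine kinase signaling, and none was within 1 kb of a TSS. The strongest 2 had 198 and 196 tags, and the span held no H3K4me3 peak in any list. The 7 sites at chr2:172218509-172246703 covered Cass4, an adhesion scaffold of the Cas family. The site of the sequence above had 235 tags and a fold enrichment of 72.1, the other 6 had 41 to 156 tags. The remaining clusters with at least 6 sites lay in Ext1, an enzyme of heparan sulfate synthesis (7 sites, 453 tags), Dpysl2, a binding protein of tubulin (6 sites, 555 tags), and Grk5, a kinase of G-protein-coupled receptors (6 sites, 535 tags). When only sites with a p-value of 1e-10 or less entered the rule, 7 of these 12 leading clusters still held member sites. The clusters at Il1r2, the Ifitm genes, Ext1, Dusp5 and Ly86 did not.

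**Figure D2:**
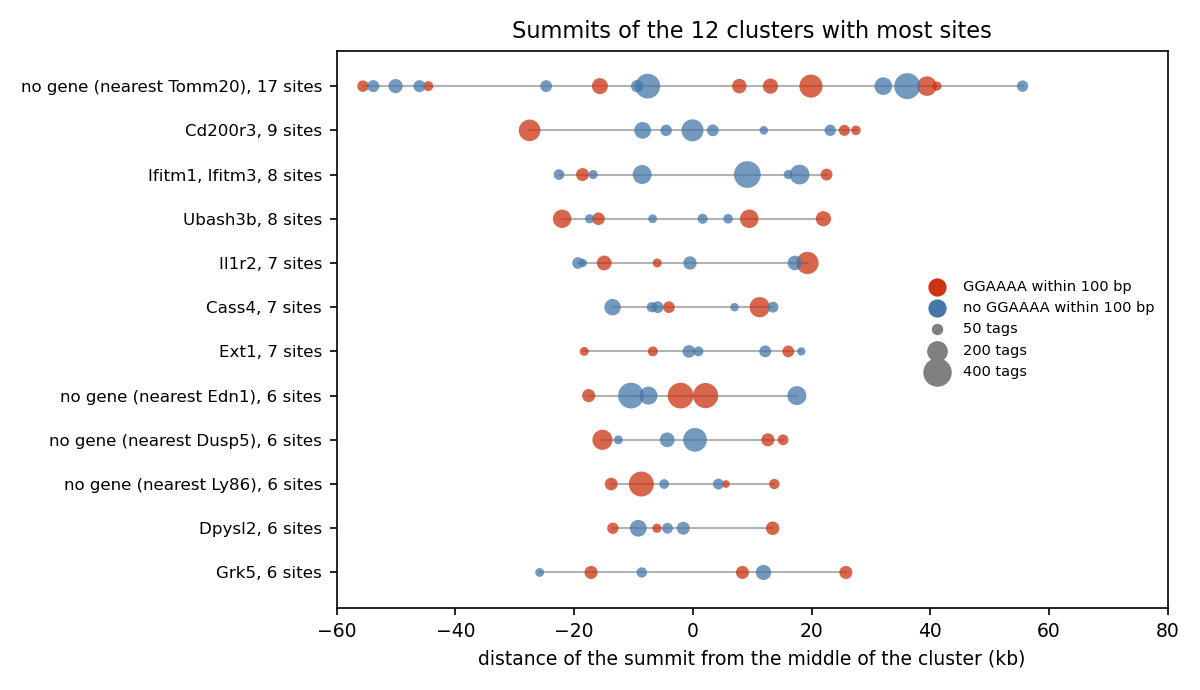
Each row is 1 of the 12 clusters with the most sites, each circle is a summit placed by its distance in kb from the middle of the cluster, and the area of a circle is proportional to its NFATc2 tags. The red circles have GGAAAA within 100 bp of the summit, which holds for 8 of the 17 sites of the largest cluster and 3 of the 6 sites near Edn1.

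Of the remaining clusters, those with the most tags included 4 sites with 1172 tags at chr14:70454613-70477160, which overlapped the end of Pebp4 and stopped 92 bp from the TSS of Egr3, a zinc finger factor induced early in activated lymphocytes. Their tags were 378, 326, 298 and 170, and the last of these sites, closest to Egr3, had a fold enrichment of 41.1. The 4 sites at Rhof, a small GTPase of filopodia (chr5:123575364-123592072), summed to 1099 tags and included the strongest member of all, with 529 tags in an intron. At Jak2, the kinase of the GM-CSF receptor, 5 sites reached from -23501 bp into the gene (chr19:29301420-29330874) with 1049 tags, yet the fold enrichment of the 5 did not exceed 9.29. The 5 sites in introns of Acoxl (chr2:127879910-127900016) had 162 to 252 tags, and the nearest coding TSS was that of Bcl2l11, which encodes the death protein Bim, 51758 bp away. The cluster of 5 sites nearest to Tmco5, at chr2:116779819-116816612, had 959 tags.

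Clusters covered 4 of the 115 annotated genes on the list of cytokines and chemokines (3.48%), beside 159 of 22238 protein-coding symbols in all (0.715%). This list was not set apart from the other gene lists described below. Their shares reached 9.52% for integrins and migration. Only the early response transcription factors (3.33%) and the NF-κB pathway (0%) had lower shares than the cytokines. Each share rests on few covered genes, and no difference was tested. The cytokine list was drawn from symbol families and did not hold Lta, a cytokine gene that was covered as well. At the Tnf and Lta locus, which encodes TNF and lymphotoxin-α (chr17:35334844-35357657), 4 sites had 489, 131, 78 and 233 tags. The strongest one stood at -90 bp from the Tnf TSS, and GGAAAA was present at all 4 summits. At Tnfsf8, the gene of CD30 ligand (chr4:63512153-63532946), 4 sites had 103, 115, 253 and 309 tags. The strongest of them, with a fold enrichment of 37.4, stood at -9201 bp from the TSS. The 4 sites at Tgfb1 and B9d2 (chr7:26468236-26492635) were weak, with 28 to 98 tags. The fourth gene, Ccl3, which encodes the chemokine MIP-1α, was covered through 1 member, a site of 400 tags at -80 bp from its TSS, because the neighbours of this site had fewer than 3 others around them.

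Further cytokine genes were the nearest coding gene of a cluster that covered none. These were Il1a (9522 bp from 2 members with 462 tags), Tnfsf14 (10437 bp from 1 member with 227 tags), Il1b (1699 bp from 1 member with 87 tags), Ccl12 (13288 bp) and Tnfsf18 (55946 bp). Among 91 genes of cytokine and chemokine receptors, 4 were covered, which were Il10ra, Il1r2, Il2ra and Il6ra, and Il1rl1, Csf1r and Il13ra1 were nearest to a cluster without a coding gene.

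Among the regulators, Nr4a1 was covered of 30 early response transcription factors, and Klf6 and Bhlhe40 were nearest to clusters without a coding gene. Egr3, also on this list, was in neither count, since the cluster 92 bp from its TSS covered Pebp4. Of 20 calcineurin and NFAT genes only Rcan1, an inhibitor of calcineurin, was covered. Its 4 sites had 193, 46, 134 and 152 tags, and with a median fold enrichment of 36.9 and a highest value of 81.6 this cluster had the highest enrichment of any. Of 30 phosphatases and feedback regulators, Cish and Dusp16 were covered, and Socs3 and Dusp5 were nearest to such clusters. Ciita, the master regulator of MHC class II genes, was covered among 15 genes of antigen presentation. Cd44 and Plek were covered among 21 genes of integrins and migration. None of 17 genes of the NF-κB pathway was covered. Of 24 myeloid transcription factors 1 was covered, Sfpi1, which encodes PU.1, a factor needed for the development of myeloid cells. Its 2 members had 285 and 81 tags. Its H3K4me3 tags, not scaled to depth, were 3188 in NT, 4710 after curdlan and 3872 with FK506 added. Irf4 (9436 bp) and Zeb2 (144425 bp) were nearest to clusters of 4 sites.

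In all, 138 clusters covered at least 1 protein-coding gene and 20 covered several, while 91 covered none. Of the 229 spans, 66 contained a TSS of a coding gene. The 91 clusters without a coding gene lay a median of 22.9 kb from the nearest coding TSS. For 41 of them it was within 20 kb, and for 16 it was beyond 100 kb.

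Members lay more often between genes than other sites did. Of the 717 members, 337 were intergenic (47.0%, 95% Wilson interval from 43.4 to 50.7%), against 41.6% (40.6 to 42.6%) of the other sites. Within 1 kb of a TSS were 82 members (11.4%, 9.31 to 14.0%) and 13.8% of the others, in introns 39.9% and 41.7%, and in exons 1.67% and 2.87%. The class within 1 kb of a TSS overlapped in its intervals. Sites of 1 cluster share their surroundings, and the intervals treat them as independent, so those of the members are too narrow. With genes limited to the protein-coding ones 51.5% of members were intergenic, and this share was not taken for the other sites.

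The GGAAAA core, searched on both strands as GGAAAA and TTTTCC, stood within 100 bp of 306 member summits (42.7%, 39.1 to 46.3%). In the other sites the share was 45.9% (44.8 to 46.9%), and in windows of the same length 1 kb away it was 18.1% for members and 18.0% for others. The AP-1 words TGACTCA and TGAGTCA, which are reverse complements of each other, stood at 18.7% of member summits and 16.8% of the others, against 3.07% and 3.75% in the windows 1 kb away. Both motifs together were at 6.83% and 6.21% of summits. The word AGGAAGT, searched on both strands, was at 20.4% and 20.7% of summits and 4.74% and 5.11% of the windows 1 kb away. The intervals of members and others overlapped for every motif, so a difference between them was not detectable with 717 sites. Within clusters the core was unevenly placed. Of the 109 clusters with at least 4 sites, 102 had the core at a summit, 34 had it at 3 or more, 4 had it at every site and 7 had it at none. A match of letters does not show that the factor bound there.

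**Figure D3:**
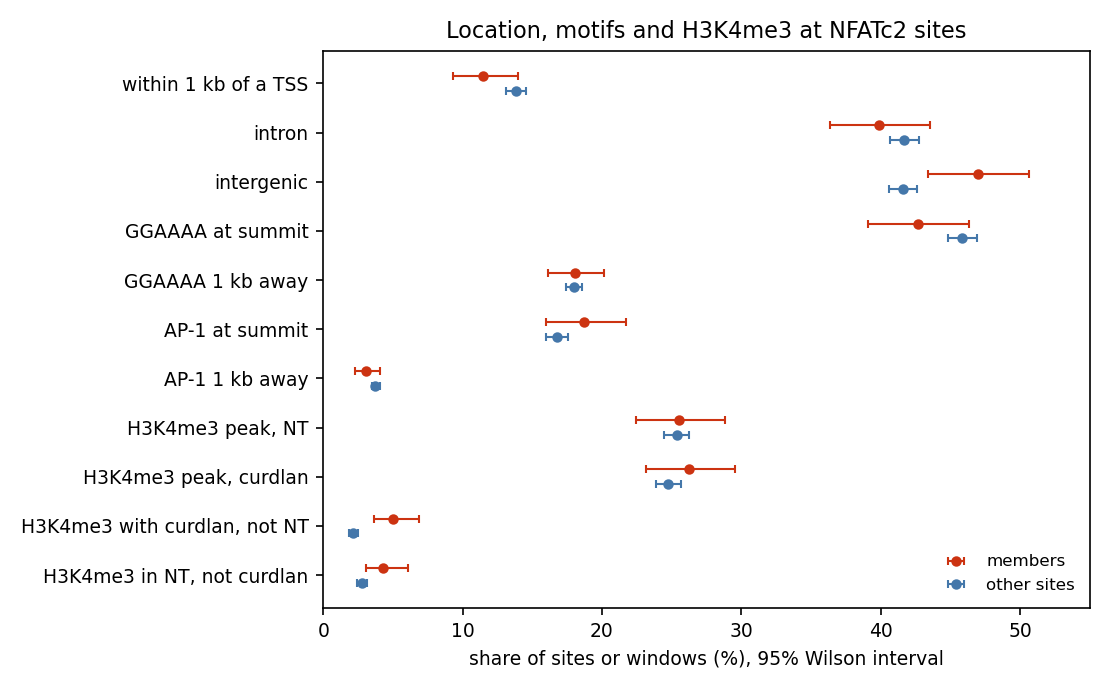
Shares of the 717 members (red) and the 8721 other sites (blue) by location, motif and overlap with H3K4me3 peaks, in percent, with 95% Wilson intervals that cover counting error only. The intervals stand apart for intergenic sites (47.0% and 41.6%) and for sites with H3K4me3 after curdlan and not in NT (5.02% and 2.14%). For H3K4me3 in NT and not after curdlan the share of members is also higher (4.32% and 2.75%), with intervals that overlap narrowly.

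Members and other sites overlapped H3K4me3 peaks in similar shares. The share of members was 25.5% in NT, 26.2% with curdlan and 26.2% with FK506 added, against 25.4%, 24.7% and 23.9% of the other sites. No list held H3K4me3 at 486 members (67.8%), and at 71.9% of the other sites. A peak in only 1 of the NT and curdlan lists had a higher share at members than at other sites, in both directions. An H3K4me3 peak with curdlan and none in NT was found at 36 members (5.02%, 3.65 to 6.87%), where 2.36% of all NFATc2 sites had one, and 2.14% (1.86 to 2.47%) of the sites outside the clusters. A peak in NT and none with curdlan was found at 31 members (4.32%, 3.06 to 6.07%). The share was 2.87% of all sites and 2.75% (2.43 to 3.12%) of the others. The last interval overlapped that of the members narrowly, which is not a test. Counted by spans, 9 had a peak with curdlan and none in NT, and 14 had the reverse. Sites of 1 cluster can lie under the same H3K4me3 peak, so the counts are not of independent sites.

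The 229 spans were overlapped, by at least 1 bp, by 170 H3K4me3 peaks in NT, 161 with curdlan and 158 with FK506 added. Each peak was counted with all its tags, also those outside the span. The peaks were about 1.08%, 1.08% and 1.06% of each list. These peaks were longer than those of the whole lists, with medians of 3110, 4216 and 3850.5 bp against 2371, 2575 and 2493.5 bp. A longer peak is more likely to overlap any span, so the comparison does not show a trait of the clusters. In 97 spans no list held a peak. Of 105 spans marked both in NT and after curdlan, RPM was higher with curdlan in 40 and lower in 65, with a median log2 ratio of -0.09. The majority turned when the median log2 ratio of all marked genes (-0.13) was subtracted, an alternative added after the values were seen, with 57 higher, 48 lower and a median of 0.04. Then 5 spans were 2-fold or more higher and 1 was lower. No share over comparable regions was taken for the counts of spans, so they only describe these spans. A peak with curdlan and none in NT appeared in 9 spans. The one with the most tags, 1343, was at the single member in Smap2, where the curdlan peak overlapped an NT peak outside the span. The next by tags was at the 5 sites over the non-coding genes 8030451A03Rik and Gm11216, where Tnc, which encodes tenascin-C, was the nearest coding gene at 62094 bp. There H3K4me3 had no peak in NT, 1053 tags with curdlan and 218 with curdlan and FK506. In the span of 4 sites nearest to Pdgfb, the gene of a platelet-derived growth factor chain, 406 tags were found with curdlan and no peak in NT or with FK506. The 14 spans that had a peak in NT and none with curdlan were weak, with 35 to 244 tags in NT.

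H3K4me3 at the genes themselves was taken from the peaks within 1 kb of any TSS of a gene. Of the 161 covered protein-coding genes, 134 (83.2%) carried the mark in NT, 136 (84.5%) with curdlan and 135 (83.9%) with FK506 added, where between 48.7 and 48.9% of 22380 coding genes did. For 24 covered genes no list held a peak. These included Lta, Pebp4 and Acoxl. The change between conditions was measured in 2 ways, as the ratio of the highest fold enrichment and as the ratio of RPM. Both were centred, which means that the median log2 ratio of all genes marked in both lists was subtracted. From NT to curdlan this median was 0.73 for fold enrichment and -0.13 for RPM.

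The covered genes as a whole stood close to the median of all genes, with a median centred log2 ratio for curdlan over NT of -0.01 by fold enrichment and 0.09 by RPM. By fold enrichment, 7 of 133 covered genes were 2-fold or more higher with curdlan (5.26%, where 3.87% of all genes were) and 5 were lower (3.76%, background 3.64%). By RPM 10 were higher (7.52%, background 1.29%) and none was lower (background 0.203%). The share of higher calls thus depended on the measure, and the measures named partly different genes, with 4 higher by both. A further measure, added after the values were seen, summed the tags over peaks of the 3 lists joined where they overlap, so that a peak that is whole in one list and split in another is counted alike. By it 7 were higher (5.26%, background 1.11%) and none was lower (background 0.0922%).

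**Figure D4:**
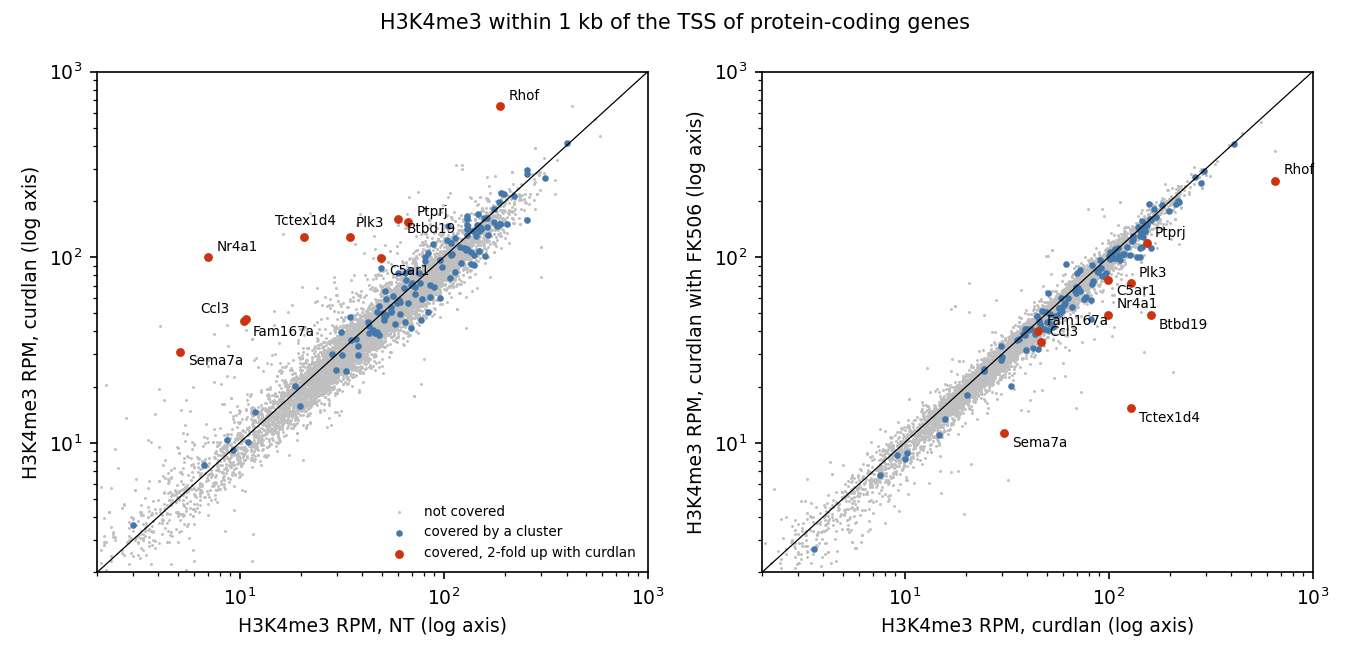
H3K4me3 RPM in peaks within 1 kb of a TSS for each coding gene, NT against curdlan on the left and curdlan against curdlan with FK506 on the right, on log axes with the line of equal values, not centred. Covered genes are blue, the 10 that were 2-fold higher with curdlan after centring are red, and Nr4a1 lies farthest above the line on the left (7.02 and 99.8 RPM).

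The 7 genes that were 2-fold or more higher with curdlan in joined peaks were Nr4a1, Sema7a, Ccl3, Fam167a, C5ar1, Plk3 and Tctex1d4. The last 2 share 1 joined region and were counted as separate genes. Sema7a and Fam167a, like Ccl3, were covered through 1 member site each. The spans at Sema7a and Fam167a held no H3K4me3 peak, so the mark at these genes lay outside them. Nr4a1, an orphan nuclear receptor induced rapidly by many signals, had 117 tags in NT, 2124 with curdlan and 956 with FK506 added. Its peak lengthened from 1.80 kb in NT to 7.26 kb with curdlan and measured 4.59 kb with FK506. The centred fold of RPM was 15.5 for curdlan over NT and 0.508 for FK506 over curdlan, 2 ratios that share the curdlan library. The 5 NFATc2 sites of this cluster (chr15:101076278-101097398) had only 33 to 80 tags, so a strong change of the mark lay beside weak sites.

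Sema7a, a membrane-anchored semaphorin, had 85, 656 and 220 H3K4me3 tags in the same order of conditions. Ccl3 had 179, 991 and 677 tags. By fold enrichment these 2 genes were also past 2-fold, with centred log2 ratios of 1.75 and 1.86. Fam167a had 175, 959 and 775 tags, and C5ar1, the receptor of the complement fragment C5a, had 818, 2112 and 1464. The tags with FK506 were nearer to those with curdlan at Fam167a and nearer to those in NT at Sema7a.

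Plk3, a polo-like kinase, and its neighbours Tctex1d4 and Btbd19 shared a cluster of 4 sites (chr4:116790030-116808062), with 410 of its 570 tags at 1 summit 42 bp from the Tctex1d4 TSS and no GGAAAA at any summit. With curdlan a single peak of 11.068 kb with 2729 tags reached over the starts of Plk3 and Tctex1d4. In NT they had separate peaks with 578 and 345 tags, and with FK506 separate peaks with 1411 and 300. Joined, Plk3 and Tctex1d4 had 923, 2729 and 1711 tags, a centred rise of 2.53-fold with curdlan. Joined over Btbd19 as well, the tags were 1576, 3429 and 2363, a rise of 1.86-fold.

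At Rhof the joining removed the call. Its tags were 3155 in NT, 13939 with curdlan and 5033 with FK506 added, a centred fold of 3.77 for curdlan over NT. The curdlan tags lay in a single peak of 21.852 kb, the longest that overlapped any span, which the other lists split. Joined, the locus had 10233, 13939 and 12345 tags, a centred fold of 1.16. Ptprj, the receptor phosphatase CD148, had 1118, 3278 and 2312 tags and a joined fold of 1.94.

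Covered genes that gained a peak with curdlan were Siglec5, Ildr1 and Stfa2, 3 of the 27 without a peak in NT, where 0.953% of all genes without one gained it. Siglec5, a lectin that binds sialic acid, had no peak in NT, 834 tags with curdlan and 226 with curdlan and FK506, and its 3 member sites had 183, 235 and 74 NFATc2 tags. Ildr1 had 322 H3K4me3 tags with curdlan within 1 kb of a TSS and no peak there in the other lists. That peak lay outside the span of its cluster, which had a peak of 35 tags in NT and none in the other lists. Stfa2, an inhibitor of cysteine proteases, had 246 and 176 tags with curdlan and with FK506. Siglec5 and Stfa2 have close relatives beside them, and their tag counts are uncertain. Of the 134 covered genes with a peak in NT, only Gpr77 had none with curdlan, where 1.18% of all genes with a peak in NT lost it.

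None of the 5 genes that were 2-fold lower with curdlan by fold enrichment was 2-fold lower by RPM. Tnf had 2169, 3550 and 3544 tags in the 3 lists, while the centred log2 ratio of fold enrichment from NT to curdlan was -1.02. Rcan1 had 145, 220 and 171 tags and a ratio of -1.20, and Ptx3, a soluble pattern recognition protein, had 1484, 2514 and 2019 tags and -1.08. For Ciita, with 4267, 3373 and 3759 tags and a ratio of -1.14, both measures were lower with curdlan, with a ratio of -0.57 for RPM. Slamf9, with 637, 709 and 392 tags and a ratio of -1.13, was the fifth.

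**Figure D5:**
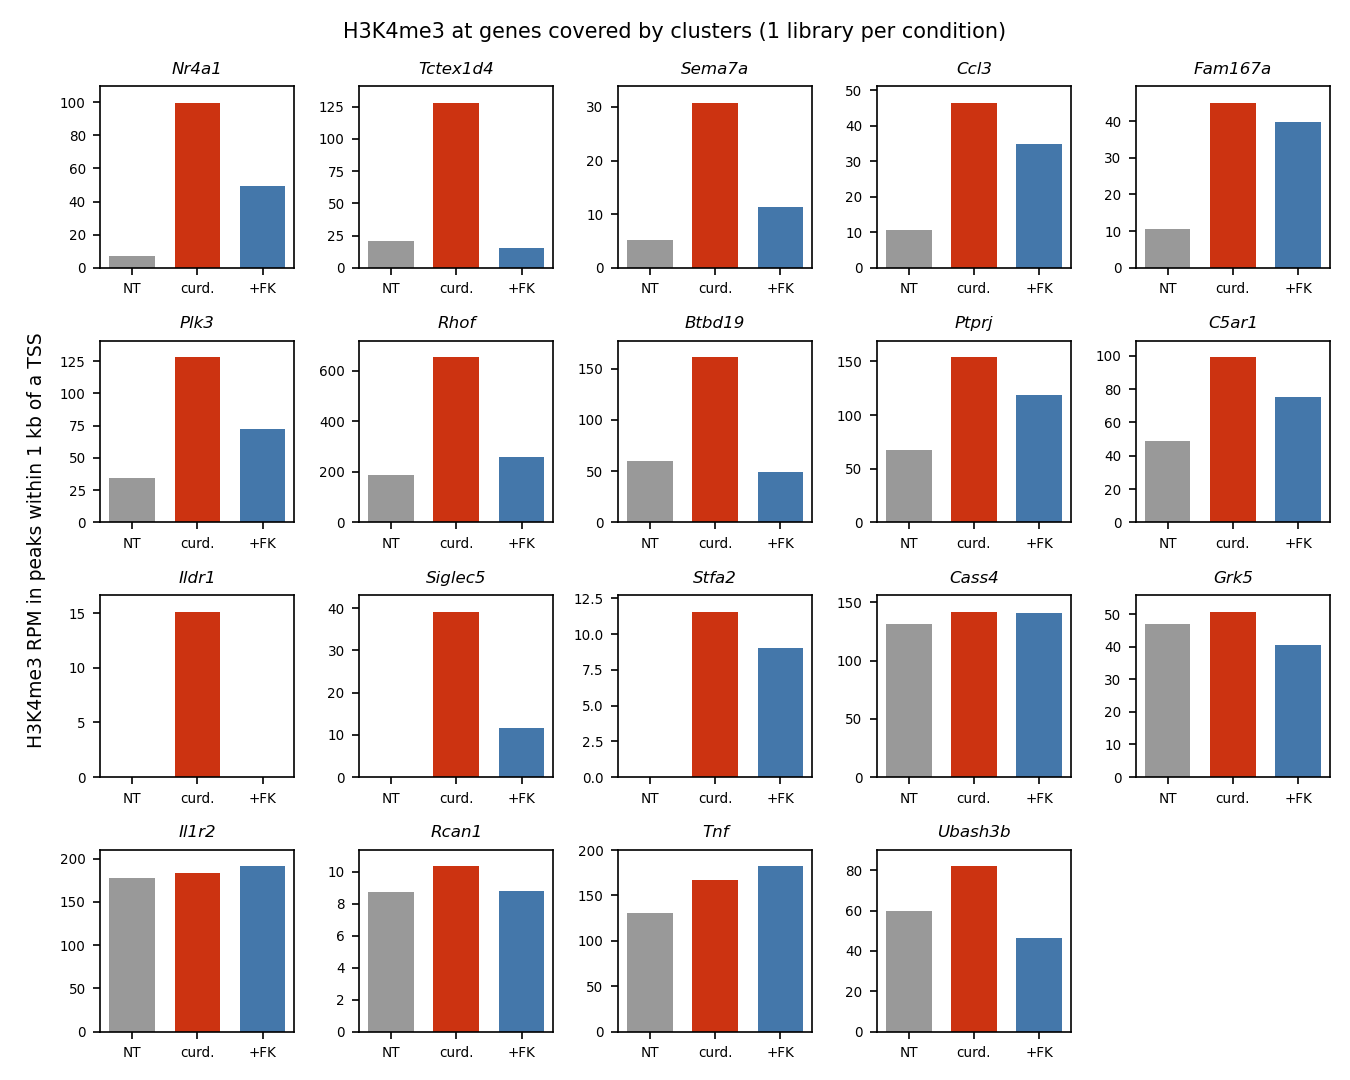
H3K4me3 RPM in NT (grey), curdlan (red) and curdlan with FK506 (blue), from 1 library each, in peaks within 1 kb of a TSS, for covered genes that were 2-fold higher with curdlan by RPM, gained a peak, or are named for their clusters. No bar means that the list held no peak, as for Siglec5 in NT, and each panel has its own axis from 0.

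Between curdlan and curdlan with FK506, 7 of 135 covered genes were 2-fold or more lower by fold enrichment (5.19%, background 3.85%) and 1 was higher (0.741%, background 3.39%). By RPM 5 were lower (3.70%, background 0.398%) and none was higher (background 0.157%), and in joined peaks 2 were lower (1.48%, background 0.212%) and none higher (background 0.0277%). By RPM the lowest ratios were at Tctex1d4, with a fold of 0.124, Siglec5, with 0.306, Btbd19, with 0.313, and Sema7a, with 0.378. In joined peaks the folds of FK506 over curdlan were 0.707 at Tctex1d4, 0.777 at Btbd19 and 0.998 at Rhof. Ubash3b had 1000 H3K4me3 tags in NT, 1743 with curdlan and 905 with FK506 added, a fold of 0.586 for FK506 over curdlan that did not reach 2-fold. For A230083G16Rik, Lcp1, 9030617O03Rik and Obfc1, the lower fold enrichment with FK506 (centred log2 from -1.46 to -1.08) came with tags that hardly differed between curdlan and FK506, such as 5667 and 5250 at Lcp1, the actin bundling protein L-plastin. The medians over covered genes were -0.04 by fold enrichment and -0.08 by RPM. Against NT, the mark with curdlan and FK506 was 2-fold or more higher at 5 of 133 covered genes by RPM (3.76%, background 0.917%) and lower at none (background 0.157%). By fold enrichment it was higher at 2 (background 3.32%) and lower at 2 (background 3.29%). In joined peaks it was higher at 4 (3.01%, background 0.794%) and lower at none (background 0.0739%).

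The 4 covered receptor genes of the list lay within 2-fold from NT to curdlan by both measures. In the NT, curdlan and FK506 lists, in that order, the tags were 2951, 3895 and 3720 at Il1r2, 1808, 2529 and 2029 at Il2ra, 2321, 2961 and 2848 at Il10ra, and 637, 634 and 649 at Il6ra. They were 4275, 6270 and 5655 at Cish, an inhibitor of cytokine receptor signaling, and 2528, 3035 and 1960 at Tnfsf8. Part of these differences is depth. From NT to curdlan, RPM went from 177.1 to 183.0 at Il1r2, 108.5 to 118.8 at Il2ra and 139.3 to 139.1 at Il10ra. It went from 38.2 to 29.8 at Il6ra, 256.6 to 294.5 at Cish and 151.7 to 142.6 at Tnfsf8. Near clusters without a coding gene, Socs3, another inhibitor of cytokine signaling, had 1434, 3417 and 3147 tags, a centred log2 ratio from NT to curdlan of 1.02 by RPM and 0.58 by fold enrichment. The cytokine genes Tnfsf14 and Il1a had no peak in NT. Tnfsf14 had 923 tags with curdlan and 197 with curdlan and FK506, and Il1a had 504 and 409. Il1b had no H3K4me3 peak within 1 kb of its TSS in any list.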

How the data were processed

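Peak lists of 4 ChIP-seq libraries were used: NFATc2-V5 after curdlan, and H3K4me3 in NT, curdlan and curdlan with FK506, each against its input. The authors mapped single-end reads to mm9 with bowtie at default settings and called peaks per library with MACS (1.4.2 in the file headers) at a p-value of 1e-05, so no library was pooled. The deposited lists give each peak's count of tags (not normalized), the p-value as −10 log10 p, the FDR in percent, and the fold enrichment as a ratio to the tags that the input predicts locally. The NFATc2 reads are described as uniquely mapped, which could not be checked from the peak lists. For H3K4me3 the placement of reads with several matches was not given in the sources used here.

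The members and gene lists were chosen with earlier results of these data known. A gene was covered when it overlapped a span, in the GENCODE annotation of the same build (37310 genes). Clusters named were the 12 with most members, the next 5 by tags and those over cytokine genes. H3K4me3 genes named were those gained and the 10 highest or lowest by each ratio. Genes outside this rule (near gene-free clusters, or receptors) were named after their values were seen. Spi1 was matched by its older symbol Sfpi1, and Cebpd was not matched as protein-coding. No filter on low values was set for the counts, and genes named by a ratio had at least 100 tags in 1 list. Python 3.11.15, pandas 2.3.3 and pysam 0.24.0 were used, and the rule, overlaps and ratios were tested on simulated data. Intervals are at 95% and cover counting error only. Depth limits weak sites, as 1 tag is 1 read position. Alternatives are given at the end.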

Additional observations from a re-analysis of the deposited data

How the results depend on the processing

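No paired analysis was possible because each group has 1 sample. Most of all, the number of members followed the rule: 157 members in 74 clusters with a window of 10 kb, 2368 in 550 with 50 kb, 2000 in 648 with at least 2 other summits, 37 in 17 with at least 5, and 113 in 42 with NFATc2 p-values of 1e-10 or less. That last limit raised the median tags to 150 and the fold enrichment to 18.2. The limit of 5% on the FDR and merging summits under 1 kb apart kept both counts within 1.5-fold. Members near a TSS were 8.65% with protein-coding genes only and 28.6% within 5 kb, intergenic members 51.5% and 41.3%, and intronic ones 29.3% within 5 kb. GGAAAA was at 30.0% of summits within 50 bp and 53.3% within 200 bp, AP-1 at 12.6% and 23.2%. Covered genes were 76 with a TSS inside the span, 27 at 1e-10 and 82 in clusters of at least 4 members, the last added after seeing the data.

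For H3K4me3 at covered genes, RPM gave 0% lower with curdlan and 0% higher with FK506, as did joined peaks (0% and 0%, with 1.48% lower with FK506) and tags per kb (0%, 0% and 1.48%). Without centring, 33.8% were higher and 0% lower with curdlan, 0% higher and 11.9% lower with FK506, with medians of 0.72 and -0.31, where 30.03% and 0.12% of all genes, and 1.21% and 9.29%, were. At 1.5-fold the shares were 12.03% higher and 17.3% lower with curdlan, and 7.41% and 17.8% with FK506 (all genes 14.11%, 14.12%, 13.74% and 14.1%). At 3-fold they were 2.26%, 0%, 0% and 1.48% (all genes 0.379%, 0.333%, 0.222% and 0.259%). With a TSS inside the span (76 genes), 86.8% had a peak in NT and 89.5% had one with curdlan. Of the few without one in NT 30.0% gained it, where 0.953% of all genes without one did. With a TSS within 20 kb, 77.8% had a peak with curdlan. At 1e-10, 9.52% were lower with curdlan (2 of 21 genes, all genes 3.64%), 4.55% higher with FK506 (1 gene, all genes 3.39%), and the median with FK506 was -0.32. In clusters of at least 4 members 0% were higher with FK506. The other 98 values stayed within their intervals or 1.5-fold. Depth limits the weakest members, whose peaks hold as few as 19 tags.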

Other observations

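The clusters also covered 47 genes that are not protein-coding. Of these, 26 carried H3K4me3 within 1 kb of a TSS in NT, and 27 did in each of the other lists. A total of 3 of the 21 without a peak in NT gained one with curdlan (14.3%, where 0.368% of all such genes did), 2 of 26 lost one (7.69%, all 3.54%), and 18 had none in any list. The 3 were Gm11998, a U6 gene and 5830416P10Rik. The U6 peak was that counted above for Stfa2. The peak of 5830416P10Rik, with 1022 tags, was shared with 4833407H14Rik, which had 437 tags in NT. These are thus not 3 new peaks. Among the 24 marked in both NT and curdlan, 1 was 2-fold or more higher by fold enrichment (4.17%, all 3.99%) and none was lower (all 3.60%). Between curdlan and curdlan with FK506, 2 of 27 were higher (7.41%, all 3.02%) and 2 lower (7.41%, all 3.79%). The 2 higher were 5830416P10Rik and 4833407H14Rik, which share 1 peak.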
